A study of Mus musculus with 31 samples.

Results

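The study holds 31 small RNA libraries of the mouse right hippocampus, and 6 of them came from mice that lacked the serotonin transporter (5-HTT knockout, KO) and received water. Of these 6 KO-water libraries, replicates 3, 4 and 6 are columns of the deposited count table that sets KO-water beside wild type water (WT-water), and replicates 1, 2 and 5 are not. The first 3 are called the table set here and the other 3 the other set. Membership of that table was the rule that split them, and no measured value was used here. The labels do not say why that table holds only 3 of the 6. Whether measured values had a part in that choice is not known. All 6 have the same genotype, strain, tissue and treatment in the labels. All 6 have a column in the table of KO-water and KO-exercise, which supplied the counts. The groups used beside them were 7 WT-water libraries (wild type mice given water) and 5 KO-exercise libraries (knockout mice after 4 weeks of exercise). The remaining 13 libraries were 2 from knockout and 6 from wild type mice given corticosterone, the main glucocorticoid of rodents, and 5 from wild type mice after exercise. All are C57Bl/6 J mice, and no age is stated in the labels.

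Total counts over mature microRNAs were 1277046 to 2319193 in the table set and 2043781 to 3254739 in the other set. Between 853 and 919 of 1966 microRNAs had a count in the table set libraries and between 924 and 974 in the other set. Neuronal miR-124-3p was the most abundant microRNA, at 248255, 268675 and 271092 CPM (counts per 1000000 counted, after scaling) in the table set and 207017, 215701 and 251938 CPM in the other set. Markers of hindbrain and spinal cord from the miR-10 and miR-196 families summed to at most 18.1 CPM in any of the 6. The transporter's mRNA is not among the microRNAs counted, so the knockout label could not be checked in either set. Every pair of the 6 libraries differed beyond counting noise, with a chi-square per degree of freedom of at least 28.2. The labels call the samples biological replicates.

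A microRNA is cut from a hairpin with 2 arms, named 5p and 3p. Both arms leave the hairpin as a duplex, 1 strand is usually kept in an Argonaute protein as the guide, and its partner is usually degraded, so a hairpin's arms can differ in level even though they were made in equal number. The guide finds messenger RNAs mainly through its seed, bases 2 to 8 from the 5′ end, and microRNAs with the same seed form a family that can act on shared targets. In the hippocampus, miR-124, miR-9, miR-128 and miR-138 are abundant neuronal microRNAs, miR-219 and miR-338 are known for oligodendrocyte maturation, and a large imprinted cluster on chromosome 12 supplies many microRNAs made mostly in neurons. miR-16 and miR-135a are known as regulators of serotonergic genes.

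The mature sequences below are those of microRNAs among the largest differences between the sets at a mean of at least 100 CPM. They are from RefSeq (GRCm38.p6), 5′ to 3′, with the seed in capitals. RefSeq entries were matched for 461 of the 532 microRNAs tested. The first 8 were higher in the table set.
miR-342-3p: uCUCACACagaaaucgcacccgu
miR-223-3p: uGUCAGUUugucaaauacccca
miR-152-3p: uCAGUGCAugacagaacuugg
miR-192-5p: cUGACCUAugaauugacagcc
miR-194-5p: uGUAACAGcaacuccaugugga
miR-935: cCCAGUUAccgcuuccgcuaccgc
miR-218-5p: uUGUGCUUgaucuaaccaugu
miR-666-5p: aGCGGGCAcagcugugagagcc
The next 9 were lower in the table set.
miR-1298-5p: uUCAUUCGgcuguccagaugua
miR-219a-5p: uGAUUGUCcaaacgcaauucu
miR-350-3p: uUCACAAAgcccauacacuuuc
miR-434-3p: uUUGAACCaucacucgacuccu
miR-544-3p: aUUCUGCAuuuuuagcaagcuc
miR-382-3p: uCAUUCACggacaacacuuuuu
miR-338-3p: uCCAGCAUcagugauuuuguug
miR-106b-5p: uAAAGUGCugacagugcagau
miR-361-5p: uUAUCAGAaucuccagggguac
No seed is shared within either group of sequences.

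The next sequences are arms of hairpins described below whose 2 arms differed in opposite directions, shown so that each arm can be read beside its partner (the partners miR-338-3p, miR-434-3p and miR-666-5p stand above).
miR-338-5p: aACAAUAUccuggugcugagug
miR-434-5p: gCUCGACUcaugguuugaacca
miR-666-3p: gGCUGCAGcgugaucgccugcu
miR-340-5p: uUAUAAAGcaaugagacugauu
miR-340-3p: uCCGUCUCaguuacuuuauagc
miR-330-5p: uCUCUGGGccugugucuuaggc
miR-330-3p: gCAAAGCAcagggccugcagaga

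The last sequences belong to 3 seed families, shown because members with 1 seed moved together in the first family and apart in the other 2 (miR-152-3p, of the miR-148 family, stands above).
miR-29a-3p: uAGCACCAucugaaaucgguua
miR-29b-3p: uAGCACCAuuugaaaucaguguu
miR-29c-3p: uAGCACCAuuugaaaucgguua
miR-16-5p: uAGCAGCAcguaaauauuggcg
miR-195a-5p: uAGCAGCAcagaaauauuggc
miR-15a-5p: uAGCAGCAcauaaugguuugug
miR-148a-3p: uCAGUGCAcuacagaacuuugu
miR-148b-3p: uCAGUGCAucacagaacuuugu

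The first comparison asked whether 3 knockout water libraries differ from the other 3 that carry the same labels. Of 532 microRNAs with enough counts to test, 154 (28.9%) were higher in the table set and 136 (25.6%) lower at an adjusted p below 0.05 (edgeR quasi-likelihood test, Benjamini-Hochberg). Together these were 290 microRNAs (54.5%), and 32.1% of those tested were both called and more than 2-fold apart. The median log2 fold change was 0.05 and the median absolute log2 fold change was 0.73. For 339 microRNAs (63.7%) every library of 1 set lay above every library of the other. Without scaling factors 134 were higher and 155 lower, with a median log2 fold change of -0.06. Called microRNAs stood at every level of abundance, and miR-124-3p itself was not called (log2 fold change 0.22, adjusted p = 0.134), though it was called higher without replicate 5.

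**Figure D1:**
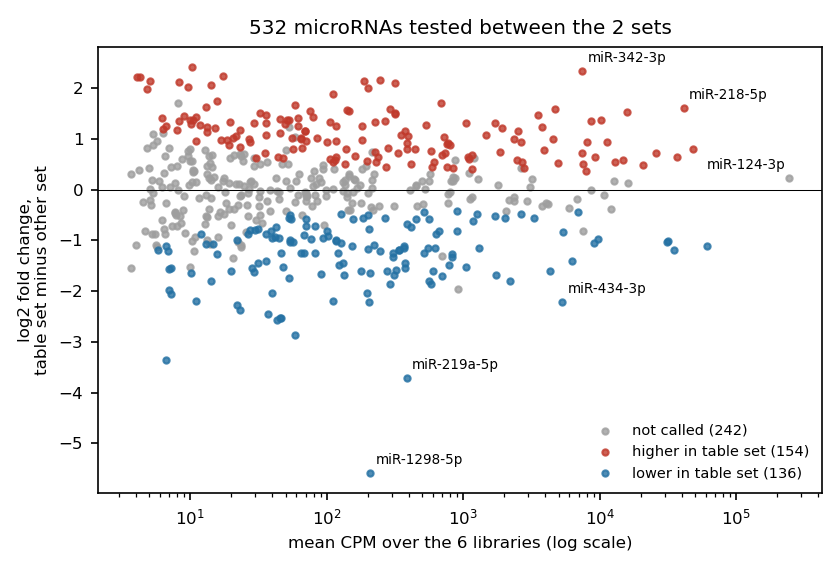
Mean level over the 6 KO-water libraries (CPM, log scale) against the log2 fold change of the table set minus the other set for the 532 microRNAs tested; red points are the 154 called higher, blue points the 136 called lower and grey points those not called. Called microRNAs lie on both sides of 0 at every level, and miR-1298-5p and miR-219a-5p lie lowest.

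Libraries of 1 set resembled each other and not the other set. Over the 532 microRNAs, the median absolute log2 difference between 2 libraries was 0.230 to 0.253 for the 3 pairs within the table set and 0.255 to 0.341 for the 3 pairs within the other set. For the 9 pairs across sets it was 0.650 to 0.816, so no pair across sets came as close as any pair within a set. The first letter of a sample code is G or H, with no stated meaning, and each set holds 2 libraries of G and 1 of H. Among libraries of letter G alone, 260 microRNAs were called, and all 289 of the 290 that could be tested there had the same direction. Between the single H libraries of the sets, 289 of 290 had the same direction. The 290 were called from these same libraries, so agreement in direction was largely fixed by that choice and is a description only. The labels name no sequencing pool, extraction day or cage, so the sets and any of these cannot be told apart.

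The 12 largest rises were taken among calls with a mean of at least 100 CPM and sets that do not overlap. Of these 12, miR-223-3p and miR-150-5p belong to the list of immune cell microRNAs and miR-218-5p and miR-138-1-3p to the neuron-enriched list. miR-342-3p lies in an intron of Evl (chr12:108658680-108658702, plus strand, GRCm38.p6) and stood at 10531, 12992 and 13598 CPM in the table set (replicates 3, 4 and 6) against 2172, 2323 and 2808 CPM in the other set (replicates 1, 2 and 5). Its lowest table set library was more than 3 times its highest in the other set (log2 fold change 2.35, SE 0.16, adjusted p = 1.32e-06). With letter G alone its log2 fold change was 2.35.

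miR-218-5p is made from introns of the axon guidance genes Slit2 and Slit3 (chr5:48223966-48223986 and chr11:35616840-35616860, plus strand), and counts from the 2 copies cannot be separated. It stood at 51879, 68443 and 65466 CPM in the table set and 17643, 22119 and 20977 CPM in the other set (log2 fold change 1.61, SE 0.15, adjusted p = 7.36e-06). The sets did not overlap, and this made miR-218-5p one of the most abundant microRNAs of the table set. For its passenger strand miR-218-2-3p the sets overlapped (mean 54.2 against 87.4 CPM, log2 fold change -0.71). It was called lower in the table set, and the call was lost in 6 alternatives, among them leaving out replicate 1, 3, 5 or 6.

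miR-223-3p, a microRNA of myeloid blood cells, stood at 333, 487 and 389 CPM in the table set and 64.4, 76.2 and 127 CPM in the other set (log2 fold change 2.17, SE 0.27, adjusted p = 8.92e-05). miR-150-5p, known from lymphocytes, stood at 6097, 7973 and 6996 CPM in the table set and 2239.9, 1974 and 2798 CPM in the other set (log2 fold change 1.59, SE 0.17, adjusted p = 2.01e-05). Neither overlapped between the sets. miR-421-3p stood at 427, 566 and 541 CPM in the table set and 122, 114 and 119 CPM in the other set (log2 fold change 2.11, SE 0.17, adjusted p = 3.11e-06).

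miR-152-3p, from an intron of Copz2, stood at 287, 356 and 280.2 CPM in the table set and 66.2, 58.7 and 83.6 CPM in the other set (log2 fold change 2.14, SE 0.20, adjusted p = 6.87e-06). miR-192-5p and miR-194-5p share a cluster on chromosome 19, and miR-194-5p has a further copy on chromosome 1. miR-192-5p stood at 281, 335 and 349 CPM in the table set and 87.7, 58.7 and 94.1 CPM in the other set (log2 fold change 2.00, SE 0.21, adjusted p = 1.51e-05). miR-194-5p stood at 173.9, 149 and 197 CPM in the table set and 47.7, 45.0 and 48.0 CPM in the other set (log2 fold change 1.89, SE 0.18, adjusted p = 9.74e-06). For all 3 the sets were far apart relative to the spread within each. The rest of the 12 largest rises of at least 100 CPM were miR-935, miR-138-1-3p, miR-666-5p and miR-6240, with log2 fold changes of 1.71, 1.59, 1.58 and 1.56.

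The 12 largest falls were taken by the same rule, and rarer microRNAs with larger falls are left out. Of these 12, 6 come from the imprinted chromosome 12 cluster. miR-219a-5p and miR-338-3p are on the oligodendrocyte list and miR-1298-5p is on the list of Htr2c introns. Each of these lists also held members called higher, given further on. miR-219a-5p is made from copies at chr17:34025052-34025072 and chr2:29845689-29845709 (minus strand) and stood at 63.8, 40.6 and 56.9 CPM in the table set against 627, 643 and 873 CPM in the other set. The whole table set held 297 counts of it among 5540201, and the other set 5801 among 7698183. The sets did not overlap (log2 fold change -3.72, SE 0.22, adjusted p = 4.87e-07), and with letter G alone the log2 fold change was -3.61.

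miR-1298-5p lies in an intron of Htr2c, a serotonin receptor gene with high expression in the choroid plexus (chrX:147064918-147064939, plus strand). It stood at 11.2, 7.46 and 6.47 CPM in the table set and 162, 66.7 and 992 CPM in the other set. Its spread within the other set was wide, and the SE was large (log2 fold change -5.59, SE 1.45, adjusted p = 0.0307). The adjusted p was above 0.05 when any 1 of replicates 1, 3, 4 or 6 was left out and when no filter on low counts was used. Its neighbour in the same gene, miR-1912-5p, had no count in the table set, where the limit that a count of 0 allows is 0.541 per 1000000 counts (3 counts over the set). It had 5, 1 and 44 counts in the other set, so that replicate 5 held nearly all of them. miR-1912-5p was not among the microRNAs tested and was named after its values were seen.

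miR-434-3p, of the imprinted cluster (chr12:109594565-109594586, plus strand), stood at 2157, 1657 and 1822 CPM in the table set and 8091, 8262 and 9704 CPM in the other set (log2 fold change -2.21, SE 0.16, adjusted p = 1.32e-06). miR-544-3p of the same cluster stood at 39.8, 41.5 and 37.5 CPM in the table set and 159.8, 213 and 170.4 CPM in the other set (log2 fold change -2.20, SE 0.19, adjusted p = 6.77e-06). miR-382-3p, also of that cluster, stood at 103.02, 58.9 and 68.0 CPM in the table set and 307, 339 and 309 CPM in the other set (log2 fold change -2.04, SE 0.21, adjusted p = 1.69e-05). None of the 3 overlapped between sets.

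miR-350-3p, from an intron of Cep170, stood at 85.2, 63.8 and 68.4 CPM in the table set and 287, 321 and 405 CPM in the other set (log2 fold change -2.22, SE 0.20, adjusted p = 6.87e-06). miR-361-5p, from an intron of Chm, stood at 139, 138 and 101.7 CPM in the table set and 410.2, 345 and 617 CPM in the other set (log2 fold change -1.86, SE 0.23, adjusted p = 6.04e-05). miR-106b-5p, a relative of the growth-promoting miR-17 from an intron of Mcm7, stood at 265, 245 and 235 CPM in the table set and 656, 820.5 and 1131 CPM in the other set (log2 fold change -1.81, SE 0.20, adjusted p = 2.61e-05). In each case the highest table set library lay well under the lowest of the other set. The rest of the 12 largest falls were miR-136-3p, miR-338-3p, miR-337-3p and miR-329-5p, with log2 fold changes of -1.87, -1.81, -1.70 and -1.68.

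**Figure D2:**
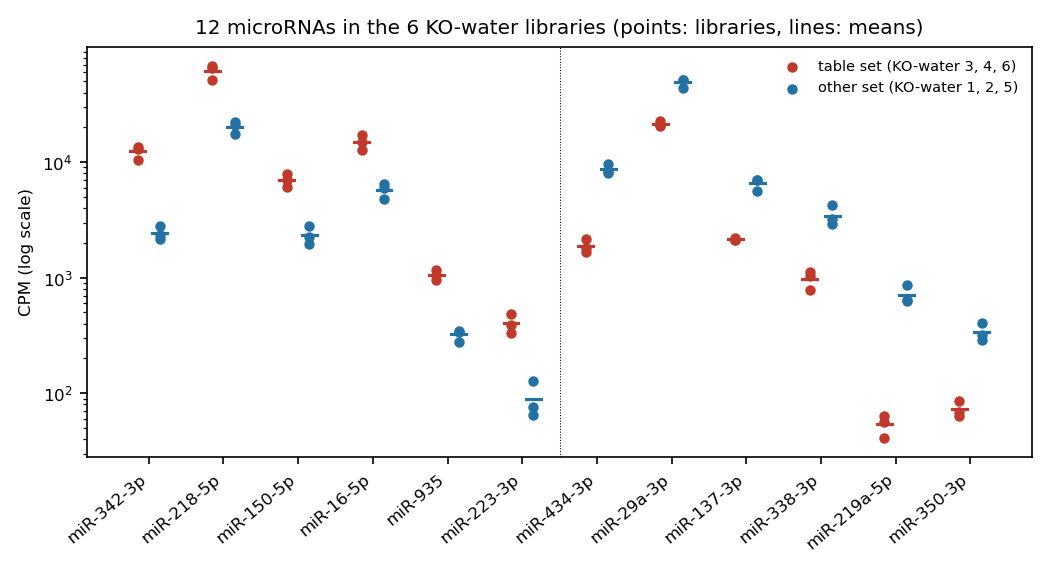
Level (CPM, log scale) of 12 microRNAs in each KO-water library, with points for libraries and lines for set means; the 6 on the left were higher and the 6 on the right lower in the table set. For each of the 12 the 3 red points and the 3 blue points do not overlap, as for miR-219a-5p at 40.6 to 63.8 CPM in the table set and 627 to 873 CPM in the other set.

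Some microRNAs did not differ detectably. The neuronal activity-regulated pair miR-132-3p and miR-212-3p, made from 1 transcript on chromosome 11, overlapped between sets. miR-132-3p stood at 1895, 2584 and 2223 CPM in the table set and 2175, 2016 and 3248 CPM in the other set (log2 fold change -0.15, SE 0.20, adjusted p = 0.537). miR-212-3p stood at 949, 1141 and 1079.8 CPM in the table set and 1025, 1008 and 1557 CPM in the other set (log2 fold change -0.18, SE 0.19, adjusted p = 0.438). miR-24-3p had a log2 fold change of -0.01 (SE 0.14), with 8763, 8193 and 8771 CPM in the table set and 7795, 10064 and 8102 CPM in the other set. The other microRNAs of at least 100 CPM nearest to 0 were miR-300-5p (-0.01), miR-92b-3p (0.02), miR-764-3p (0.02) and miR-496a-3p (-0.02). The signs of these 7 log2 fold changes changed with the setting.

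The arms of each hairpin were then set side by side. Of 165 hairpins with both arms tested, both arms were called in the same direction for 30 (13 higher, 17 lower) and in opposite directions for 32. For 61 only 1 arm was called and for 42 neither. Among the 41 hairpins whose arms both averaged at least 100 CPM, 12 had both arms called the same way and 13 had them called in opposite ways. The share of opposite hairpins among those with both arms called was 51.6%, against 46.4% without scaling factors. Over all microRNAs 28.9% were higher and 25.6% lower, and nothing particular to hairpins is read from the count of opposite arms.

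miR-338, in an intron of Aatk, had the largest difference between arms of at least 100 CPM. Its 3p arm stood at 1118, 784 and 1042 CPM in the table set and 2902, 3198 and 4218 CPM in the other set (log2 fold change -1.81, SE 0.19, adjusted p = 1.71e-05). Its 5p arm stood at 471, 513 and 574 CPM in the table set and 219, 252 and 226 CPM in the other set (log2 fold change 1.16, SE 0.16, adjusted p = 8.38e-05). As a share of both arms' counts, the 5p arm made up 29.6, 39.6 and 35.5% of the table set libraries and 7.02, 7.31 and 5.09% of the other set. The exact 95% binomial interval was 28.0% to 31.3% for the lowest table set library and 6.72% to 7.93% for the highest of the other set, for counting error only. The share was 4.08% to 6.64% in 7 WT-water libraries and 9.43% to 25.8% in 5 KO-exercise libraries, which places KO-exercise between the sets.

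For miR-434 the 5p arm's share was 34.8, 47.8 and 42.2% in the table set and 8.67, 10.7 and 8.25% in the other set, with 6.69% to 11.2% in WT-water and 11.2% to 23.0% in KO-exercise. For miR-340, in an intron of Rnf130, it was 38.1, 34.8 and 28.0% in the table set and 81.0, 72.8 and 82.4% in the other set, with 77.4% to 83.7% in WT-water and 54.6% to 79.1% in KO-exercise. The direction of this shift was opposite to that of miR-338 and miR-434, since here the 5p arm was the one that fell (log2 fold change -1.55, SE 0.18, adjusted p = 2.61e-05) and the 3p arm rose (log2 fold change 1.36, SE 0.20, adjusted p = 1.47e-04). In both hairpins no table set library came near a library of the other set.

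miR-330 lost its 5p share, with 11.1, 7.22 and 9.70% in the table set and 33.9, 37.3 and 47.8% in the other set. miR-666, of the imprinted cluster, gained it, with 50.2, 61.5 and 63.0% in the table set and 19.5, 22.6 and 22.6% in the other set. The sets did not overlap in either. The share of the 5p arm also moved in miR-382, miR-337 and miR-369, all of the imprinted cluster, where it was higher in the table set, and in miR-99a. In miR-382 the 5p arm was not called (log2 fold change 0.20) and the 3p arm fell by 2.04 on the log2 scale. miR-181c went the other way, with 68.4, 59.2 and 67.5% in the table set and 88.5, 90.5 and 87.7% in the other set.

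Other hairpins kept their arms together. Both arms of miR-9 were lower in the table set, with log2 fold changes of -1.03 (5p) and -0.98 (3p). Both arms of miR-126a, an endothelial microRNA from an intron of Egfl7, were higher, with log2 fold changes of 1.24 (5p) and 1.35 (3p). Both arms of miR-544 were lower, at -2.45 (5p) and -2.20 (3p).

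**Figure D3:**
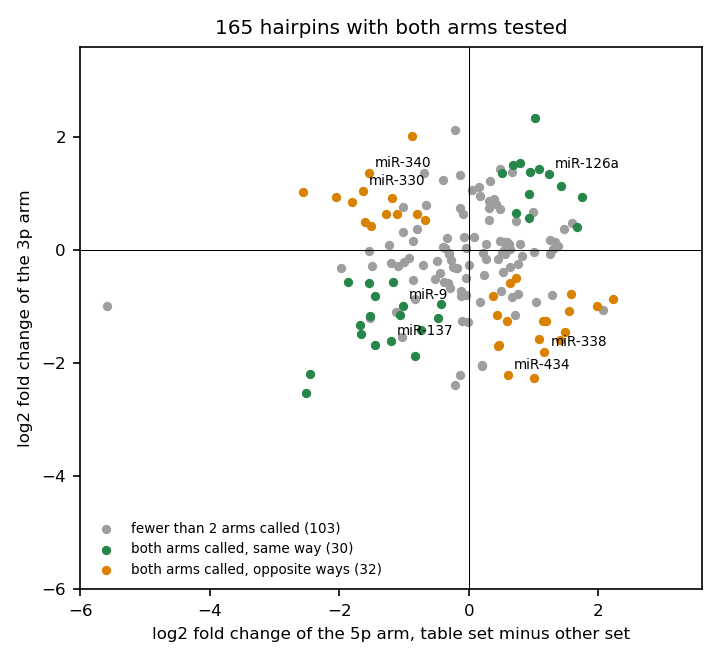
Log2 fold change (table set minus other set) of the 5p arm against that of the 3p arm for 165 hairpins with both arms tested; green points have both arms called the same way, orange points have them called in opposite ways and grey points have fewer than 2 arms called. The 32 orange hairpins, among them miR-338, miR-340, miR-434 and miR-330, fill the upper left and lower right corners.

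Over a whole library, microRNAs named as 5p arms made up 49.6% to 51.2% of all counts in the table set and 39.5% to 42.9% in the other set. MicroRNAs with no arm in their name are part of that total. In WT-water this share was 34.2% to 43.3%, and in KO-exercise 42.5% to 54.7%. Base content and length were taken only over microRNAs with a RefSeq sequence. These held 68.7% to 69.2% of counts in the table set and 70.5% to 72.9% in the other set. Weighted by their counts, uridine made up 30.2% to 30.6% of bases in the table set and 31.7% to 32.0% in the other set. In WT-water uridine made up 30.7% to 32.1%, reaching close to the table set, and in KO-exercise 30.9% to 32.1%. Guanine and cytosine together made up 44.8% to 45.3% in the table set and 42.7% to 43.1% in the other set. Their share was 42.8% to 43.7% in WT-water and 42.5% to 44.4% in KO-exercise. The mean length was 22.2 bases in each library of the table set and 22.2 to 22.3 bases in the other set.

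The called microRNAs also differed in base composition. RefSeq sequences were matched for 130 of the 154 that were higher (84.4%) and 129 of the 136 that were lower (94.9%). Median uridine content was 23.8% for those higher in the table set and 31.8% for those lower, against 27.3% over all 461 with a sequence. Median GC content was 52.2% for those higher, 45.5% for those lower and 47.8% over all. The median length was 22 bases in each class. Of 94 microRNAs with at most 20% uridine, 35 (37.2%) were higher and 13 (13.8%) lower, while of 116 with over 35% uridine, 13 (11.2%) were higher and 49 (42.2%) lower. The median log2 fold change was 0.47 in the first of these bins and -0.47 in the second. Across the 461 microRNAs, Spearman's correlation of the log2 fold change with uridine content was -0.35, and with length it was 0.01. This is a description across microRNAs of the same 6 libraries, which are not independent replicates.

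The calls were also counted by the base at each end, beside 130 higher and 129 lower over all 461 with a sequence. Of 182 microRNAs that begin with uridine, 47 (25.8%) were higher and 57 (31.3%) lower. These shares are near those over all 461, and nothing particular to the first base is read from them. Of 100 with uridine as the second base, which is the first base of the seed, 16 were higher and 37 lower, with a median log2 fold change of -0.57. Of those with uridine as the second last base, 15 (14.7%) were higher and 44 (43.1%) lower, with a median log2 fold change of -0.40. The lean was weaker at the last base. Of 176 that end with uridine, 38 (21.6%) were higher and 66 (37.5%) lower, with a median of -0.27. Single microRNAs departed from the pattern: miR-218-5p is 42.9% uridine and miR-135a-5p 52.2%, and both were higher in the table set. Whether base composition or library preparation has a part in the difference between the sets was not tested.

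**Figure D4:**
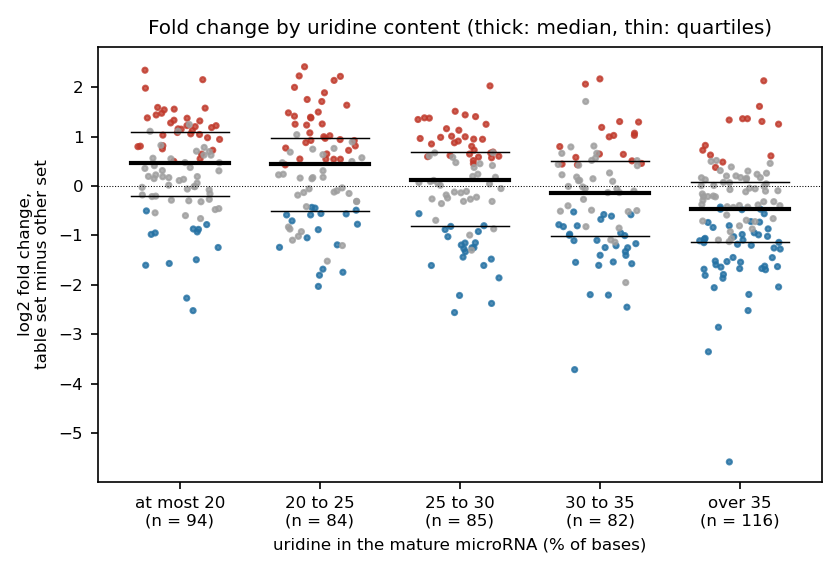
Log2 fold change (table set minus other set) of 461 microRNAs in 5 bins of uridine content (% of bases in the mature sequence), with red points called higher, blue points called lower, thick lines for medians and thin lines for quartiles. The medians descend from 0.47 in the bin of at most 20% to -0.47 in the bin over 35%.

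MicroRNAs were also grouped by shared seed. Of 14 seeds with at least 3 tested members, 9 had called members in a single direction, 4 in both directions, and 1 had none. In the miR-29 family, known as a brake on collagens and on DNA methyltransferases, all 3 members were lower in the table set. miR-29a-3p stood at 22596, 21054 and 20631 CPM in the table set and 43667, 51606 and 51870.3 CPM in the other set (log2 fold change -1.19, SE 0.13, adjusted p = 2.01e-05). miR-29b-3p and miR-29c-3p had log2 fold changes of -1.10 and -1.40.

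In the miR-15/16 family, which restrains cell cycle genes, 2 of 6 tested members were higher and 1 lower. miR-16-5p stood at 12667, 14901 and 17055 CPM in the table set and 4796, 5919.9 and 6443 CPM in the other set (log2 fold change 1.38, SE 0.16, adjusted p = 3.04e-05). miR-195a-5p stood at 2961, 3606 and 3859.6 CPM in the table set and 1337, 1587 and 1748 CPM in the other set (log2 fold change 1.16, SE 0.16, adjusted p = 1.03e-04). miR-15a-5p, which shares the Dleu2 transcript with 1 of the copies of miR-16, went the other way, at 884, 859.8 and 1035 CPM in the table set and 1114, 1477 and 1653 CPM in the other set (log2 fold change -0.61, SE 0.17, adjusted p = 0.011). The sets did not overlap for any of these 3 members. Without replicate 4, miR-15a-5p was not called. With 54.5% of all microRNAs called, these family counts are a description.

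The miR-148 family also split. miR-152-3p was higher, as given above, and miR-148b-3p was lower, at 78.5, 59.7 and 77.2 CPM in the table set and 129, 105 and 148 CPM in the other set (log2 fold change -0.82, SE 0.20, adjusted p = 0.00409). miR-148a-3p overlapped between the sets, at 136, 109 and 141 CPM and 100.2, 77.6 and 112 CPM (log2 fold change 0.41, SE 0.20, adjusted p = 0.0946), and was called only without replicate 4 or 5. These 2 relatives were named after their values were seen. The miR-25/92 family of 4 tested members had none called, with log2 fold changes between -0.10 and 0.11.

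The let-7 family holds back stem cell genes, and its counts are set beside the 28.9% of all tested microRNAs that were higher and the 25.6% that were lower. Of 11 guide strands tested 4 were higher (let-7b-5p, let-7c-5p, let-7d-5p and let-7e-5p) and 1 lower (let-7j). let-7b-5p had the largest rise, from 5611 ± 1035 CPM (SD, n = 3) in the other set to 9278 ± 697 CPM in the table set (log2 fold change 0.73, SE 0.16, adjusted p = 0.00216). let-7e-5p was called at an adjusted p of 0.0499 and its call was lost in 12 alternatives, DESeq2 and no scaling factors among them. The guide let-7g-5p was not called, but it was called in 7 alternatives, DESeq2 and no scaling factors among them. Of 11 passenger strands 1 was higher, 7 were lower and 3 were not called; lowest was let-7f-2-3p, with 16.3, 14.1 and 12.02 CPM in the table set and 109, 94.2 and 106 CPM in the other set (log2 fold change -2.86, SE 0.21, adjusted p = 1.56e-06). let-7i-3p was also lower, with a log2 fold change of -2.38. Since let-7 members differ by 1 or a few bases, counting may move reads between them.

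Lists of markers for the cell types of a hippocampal dissection did not move as blocks, and their counts are read against the 54.5% of all 532 microRNAs that were called. In bulk tissue, fewer cells of a type and less RNA per cell cannot be told apart. Of 5 oligodendrocyte microRNAs tested, 2 were lower (miR-219a-5p and miR-338-3p), 2 higher (miR-338-5p and miR-219a-1-3p) and 1 not called. That 1, miR-219a-2-3p, is the 3p arm of a miR-219a copy and stood at 959.8, 767 and 969 CPM in the table set and 769, 885 and 725 CPM in the other set (log2 fold change 0.18, SE 0.16, adjusted p = 0.359). The sets overlapped for it, although miR-219a-5p differed more than 10-fold in mean CPM. miR-219a-1-3p was rare, at 6.12, 6.63 and 7.40 CPM in the table set and 1.85, 1.89 and 0.636 CPM in the other set. The summed level of the list was 2194 to 2669.9 CPM in the table set and 5052 to 6057 CPM in the other set.

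Of 26 neuron-enriched microRNAs tested, 6 were higher and 10 lower. Those higher included miR-138-5p, a regulator of dendritic spine size, with 61409 ± 6874 CPM (SD, n = 3) in the table set and 35166 ± 8787 CPM in the other set (log2 fold change 0.80, SE 0.18, adjusted p = 0.00229). Those lower included miR-9-5p, at 20460.0 ± 1608 CPM in the table set and 41652 ± 3686 CPM in the other set (log2 fold change -1.03, SE 0.13, adjusted p = 5.52e-05). miR-128-3p was lower too, at 20983 ± 3065 CPM in the table set and 42079 ± 10978 CPM in the other set (log2 fold change -1.004, SE 0.20, adjusted p = 0.00181). miR-137-3p, a regulator of synaptic vesicle release, was also lower, at 2151 ± 39.3 CPM in the table set and 6549.5 ± 761 CPM in the other set (log2 fold change -1.61, SE 0.15, adjusted p = 6.87e-06). The median log2 fold change of the list was -0.14, and its summed level was 429880 to 478298 CPM in the table set and 411786 to 426925 CPM in the other set. Of 12 activity-regulated microRNAs 2 were higher (miR-134-5p and miR-191-5p) and 1 lower (miR-181c-5p). miR-191-5p stood at 21868, 24829.9 and 23586 CPM in the table set and 9694, 4623 and 9797 CPM in the other set (log2 fold change 1.54, SE 0.28, adjusted p = 0.0021).

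Of 9 microRNAs of microglia and other immune cells, 4 were higher (miR-223-3p, miR-150-5p, miR-142a-5p and miR-146b-5p) and 1 was lower (miR-146a-5p). Arms of miR-142a, a marker of all blood-derived cells, differed: the 5p arm had a log2 fold change of 1.38 and the 3p arm one of 0.07, which was not called. The summed level was 9163 to 11009 CPM in the table set and 5018 to 5707 CPM in the other set. Of 12 vessel microRNAs 4 were higher and none lower. miR-126a-3p led them in level, at 10297, 12878 and 14189 CPM in the table set and 4459, 4216 and 6010.4 CPM in the other set (log2 fold change 1.35, SE 0.18, adjusted p = 6.32e-05). miR-145a-5p, of smooth muscle, was called although its sets overlapped (log2 fold change 0.53, SE 0.19, adjusted p = 0.0303), and the call was lost in 5 alternatives, among them leaving out replicate 1, 2, 3 or 4. The list summed to 22475 to 28197 CPM in the table set and 11400 to 15280 CPM in the other set.

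Of 5 red blood cell microRNAs 2 were lower and 3 higher. miR-451a, the most abundant of them, stood at 528, 460.2 and 425 CPM in the table set and 1074, 1023 and 1452 CPM in the other set (log2 fold change -1.33, SE 0.18, adjusted p = 7.33e-05). miR-144-3p, made from the same transcript, had a log2 fold change of -1.25, while its other arm miR-144-5p had one of 1.19 and miR-486a-5p one of 1.52. miR-486a-5p and miR-486b-5p are near-identical and may share reads. The 3 members with opposite calls to miR-451a thus include the partner arm of 1 that fell with it. The list summed to 570 to 677 CPM in the table set and 1233 to 1601 CPM in the other set.

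Of 8 microRNAs of choroid plexus and ciliated cells, 3 were higher and 1 lower. miR-204-5p, the most abundant of these, averaged 5467 ± 317 CPM (SD, n = 3) in the table set and 9561 ± 7315 CPM in the other set and was not called (log2 fold change -0.81, SE 0.56, adjusted p = 0.279). The list summed to 8751 to 9804 CPM in the table set and 7410 to 22008 CPM in the other set, so the sets overlapped. miR-34c-5p and miR-34c-3p, of ciliated cells, had log2 fold changes of 1.08 and 1.44, and miR-211-5p one of -1.62. The calls of both arms of miR-34c were lost without replicate 1. Of 8 microRNAs from introns of Htr2c, 1 was higher (miR-764-5p, log2 fold change 1.30) and 2 lower (miR-1298-5p and miR-1264-5p, the latter at -1.97 and not called without replicate 3, 4 or 5). Of 6 tested members of the miR-183 cluster and the miR-200 family 1 was higher, of 3 muscle microRNAs 1 was lower, and the 1 tested microRNA of hindbrain and spinal cord was not called. What part a different mix of cells has in the difference between the sets was not tested.

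Of 3 tested members of the miR-135 family, known for serotonergic targets, 2 were higher, beside 28.9% of all microRNAs tested; with 3 members nothing particular to the family is read from this. miR-135a-5p stood at 1979, 2377 and 2901 CPM in the table set and 989, 829 and 1113 CPM in the other set (log2 fold change 1.31, SE 0.18, adjusted p = 8.82e-05), and miR-135b-5p had a log2 fold change of 0.99. Neither overlapped between the sets. miR-16-5p, given above with its family, was higher by a log2 fold change of 1.38.

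The imprinted cluster on chromosome 12 showed both directions along its length, beside 28.9% higher and 25.6% lower over all microRNAs tested. Of 56 tested microRNAs from its miR-379/miR-410 group, 13 were higher and 22 lower, with a median log2 fold change of -0.30. Of 22 from its miR-127/miR-433 group, 6 were higher and 10 lower, with a median of -0.32. miR-409-3p was higher, from 163.5 ± 34.7 CPM (SD, n = 3) in the other set to 466 ± 45.2 CPM in the table set (log2 fold change 1.51, SE 0.19, adjusted p = 3.88e-05). miR-154-5p was lower, from 1565 ± 57.5 CPM in the other set to 542 ± 56.3 CPM in the table set (log2 fold change -1.53, SE 0.15, adjusted p = 1.04e-05). The summed level of the second group was 11482 to 12522 CPM in the table set and 23958 to 25993 CPM in the other set.

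In the remaining lists, again beside 28.9% higher and 25.6% lower over all, of 5 guide strands of the miR-30 family 3 were lower and none higher, led by miR-30d-5p, with 5909.8 ± 556 CPM (SD, n = 3) in the table set and 12184 ± 1606 CPM in the other set (log2 fold change -1.04, SE 0.15, adjusted p = 1.06e-04). Of 12 microRNAs from the miR-17/92 and miR-106b/25 clusters, 3 were lower (miR-106b-5p, miR-20a-5p and miR-19a-3p) and 1 was higher (miR-106b-3p). The arms of miR-106b thus went opposite ways.

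Each set was then compared with the 7 WT-water libraries, which differ from both sets in genotype. The table set also differs from the other set of the same genotype. For the table set, genotype and whatever separates the sets cannot be told apart. Both comparisons share the WT-water libraries, so they are not independent of each other. In the table set, 192 of 581 microRNAs (33%) were higher than in WT-water and 162 (27.9%) lower, 354 in all (60.9%). The median absolute log2 fold change was 0.79. For the other set, none of 587 (0%) was called by edgeR, by DESeq2 or by limma-voom, 24 (4.09%) had an unadjusted p below 0.05 in the edgeR test, and the median absolute log2 fold change was 0.16. For 9 of the 587 (1.53%) the groups did not overlap, and 5 differed more than 2-fold. The number of libraries was the same in both, 3 against 7.

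miR-342-3p had a log2 fold change of 2.55 (adjusted p = 6.83e-09) for the table set minus WT-water and 0.08 (adjusted p = 0.933) for the other set minus WT-water. miR-219a-5p had one of -4.10 (adjusted p = 1.77e-09) for the table set and -0.51 (adjusted p = 0.61) for the other set. For miR-218-5p the values were 2.09 and 0.36, for miR-434-3p -2.10 and -0.01, and for miR-16-5p 1.65 and 0.15, in the same order. For these 5 the values for the other set were nearer to 0, and those of miR-342-3p and miR-434-3p there changed sign with the scaling.

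Levels scaled over all 31 libraries show the same ordering. miR-219a-5p ranged over 42.2 to 64.9 CPM in the table set, 701 to 875 CPM in the other set and 936 to 1247 CPM in WT-water. It ranged over 176 to 633 CPM in KO-exercise, with a median of 289 CPM. miR-342-3p ranged over 10728 to 13612 CPM in the table set, 2426 to 2815 CPM in the other set, 1853 to 2947 CPM in WT-water and 4015 to 9813 CPM in KO-exercise. For both microRNAs the KO-exercise libraries lay between the sets, without overlap with the table set.

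Exercise in knockout mice was compared with each set of KO-water libraries, and both comparisons share the 5 KO-exercise libraries. Against the table set, 86 of 540 microRNAs (15.9%) were higher after exercise and 91 (16.9%) lower, 177 in all (32.8%). Against the other set, 57 of 544 (10.5%) were higher and 61 (11.2%) lower, 118 in all (21.7%). These counts depended on single libraries: without KO-water replicate 4 the first was 95 and without replicate 6 it was 111, and leaving out 1 library took the second from 43 (KO-water replicate 1) to 184 (KO-exercise replicate 1). Without KO-water replicates 2 and 5 and KO-exercise replicate 4, each left out alone, the second was 60, 77 and 70.

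The sign of the exercise difference depended on the set for several of the leading microRNAs. miR-342-3p had a log2 fold change of -1.05 (adjusted p = 0.00976) for KO-exercise minus the table set and 1.28 (adjusted p = 0.00925) for KO-exercise minus the other set. For miR-218-5p the values were -0.84 (adjusted p = 0.00555) and 0.75 (adjusted p = 0.0177). miR-219a-5p went the other way, at 2.45 (adjusted p = 0.00185) against the table set and -1.27 (adjusted p = 0.0285) against the other set. For miR-434-3p the values were 1.48 (adjusted p = 7.97e-04) and -0.73 (adjusted p = 0.0314). The call against the other set was lost for each of these 4 when KO-water replicate 1 was left out.

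miR-132-3p was higher after exercise against both sets. Its log2 fold change was 0.81 (adjusted p = 0.00284) against the table set and 0.65 (adjusted p = 0.0265) against the other set, and the latter was not called without KO-water replicate 1 or 2 or without KO-exercise replicate 3 or 4. miR-16-5p was at -0.07 (adjusted p = 0.844) against the table set and 1.29 (adjusted p = 0.00671) against the other set.

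A score was formed for each of the 31 libraries as the mean log2 CPM of the 154 microRNAs higher in the table set minus that of the 136 lower. In the 6 KO-water libraries, which chose the microRNAs, it was 1.21, 1.69 and 1.53 in the table set and -0.91, -0.85 and -0.92 in the other set. The 7 WT-water libraries, which did not, ranged from -1.07 to -0.88 with a median of -0.96. KO-exercise ranged from -0.49 to 0.95 and the 2 KO-corticosterone libraries stood at -0.12 and 0.54. WT-exercise ranged from -1.01 to 1.30 and WT-corticosterone from -0.88 to 0.83. The highest of the 25 libraries outside KO-water, WT-exercise replicate 3, lay above the lowest of the table set. Within WT-exercise, replicates 1 and 2 were at -0.73 and -1.01 and the other 3 libraries at 0.70 to 1.30, so libraries of 1 label differed along this score in that group as well.

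**Figure D5:**
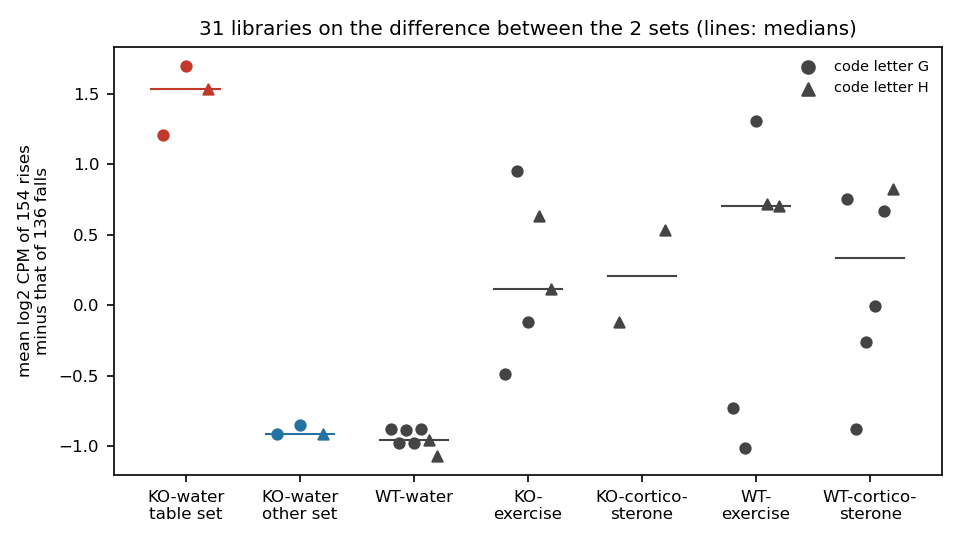
Score of each of the 31 libraries (mean log2 CPM of the 154 microRNAs higher in the table set minus that of the 136 lower), by group, with circles for code letter G, triangles for H and lines for medians. The 7 WT-water libraries lie within -1.07 to -0.88, beside the other set, the KO-exercise and KO-corticosterone libraries lie between the 2 sets, and WT-exercise runs from -1.01, under the other set, to 1.30.

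A pair of microRNAs was near 0 in both sets and present in treated mice. miR-126b-5p had 1 count over the table set, 0 over the other set and 2 over WT-water, against 45 to 159 counts in each of the 5 KO-exercise libraries. miR-126b lies on the opposite strand of miR-126a, and the sources used here do not state strand-specific counting. In the 6 KO-water libraries miR-126a-3p stood at 4216 to 14189 CPM, and miR-126b-5p had 0 or 1 count in each. Whether reads of 1 strand were counted for the other in any group was not tested. miR-196b-5p had 0 counts in the table set, 1 in the other set and 0 in WT-water, against 10 to 34 in each KO-exercise library. In these 2 microRNAs the sets were alike, and both had been named after their values were seen.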

How the data were processed

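The 5 deposited tables hold raw read counts, as whole numbers, for 1966 mature microRNAs, which the files name with the prefix mmu-. The submitters' processing notes name featureCounts, Subread, BWA, cutadapt 2.3, limma 3.54.1 and the build GRCm38 (mm10), with no order or role; the sources used here do not state strand handling. Per the labels' protocols libraries were made with Ion Total RNA-Seq v2 kits and read on an Ion Torrent S5. Columns were matched to samples by the code in the labels, 24 columns repeated in more than 1 table held identical counts, and 0 other per-sample columns were found. A KO-exercise column (replicate 4) in the table that pairs KO-water with WT-water was left out.

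Each comparison was fitted on its own libraries with edgeR 4.0.16 in R 4.3.3 (filterByExpr, TMM, estimateDisp, robust glmQLFit), with Benjamini-Hochberg adjustment over all microRNAs tested and calls at an adjusted p below 0.05. Standard errors come from the F statistic. CPM are counts over TMM-scaled library sizes and hence shares of the counted microRNAs; levels over 31 libraries and the score (log2 CPM, prior count 2) use 1 joint scaling. The labels call samples biological replicates without naming animals, so p-values measure the spread between these samples. The steps were tested on simulated data. Alternatives were DESeq2 1.42.0, its size factors, no scaling, limma-voom 3.58.1, other filters, a joint fit, the code letter and leaving out each library.

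Named microRNAs were the 12 largest calls in each direction of at least 100 CPM with sets that do not overlap, called and most abundant members of 20 lists, arms of the 10 hairpins of at least 100 CPM whose arms differed most, the most abundant, those nearest 0, and a fixed group; others are said to be chosen after their values were seen. The members and lists were chosen with earlier results of these data known. Sequences are RefSeq's for GRCm38.p6.

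Replicate numbers do not pair libraries here: the sets share no number, and same-numbered libraries of other groups had deviations that correlated between -0.30 and 0.29.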

Additional observations from a re-analysis of the deposited data

Results flagged for a closer look

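Of 40 groups of 4 to 10 libraries examined for a library far from the rest, 5 had one, where chance gives about 1 in 20. In WT-corticosterone, replicate 2 had the highest miR-219a-5p level (1620 CPM, next 540.0 CPM) and the highest miR-434-3p level (14241 CPM, next 6789 CPM). In KO-exercise, replicate 1 had the highest miR-219a-5p level (633 CPM, next 290 CPM). In WT-water, replicate 1 had the highest miR-434-3p level (10447 CPM, next 9409 CPM), and replicate 6 had the lowest share of 5p arms (34.2%, next 39.4%). These libraries belong to neither KO-water set. The KO-water libraries were examined as 1 group of 6, and none was flagged. That group joins both sets, and a gap between the sets can hide a lone library, so nothing is read from this. Each set alone holds 3 libraries, too few for this rule.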

How the results depend on the processing

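Over every alternative run, the 290 calls between the sets stayed within 1.5 times, with 238 to 307 when 1 library was left out, 282 with DESeq2, 294 with limma-voom and 260 with letter G alone; of the 290, DESeq2 called 272 and limma-voom 285. The other set minus WT-water gave 0 in every fit. The table set minus WT-water gave 308 to 361 with 1 library left out. KO-exercise minus the table set gave 95 to 216, and KO-exercise minus the other set 43 to 184; a lone library more or less changes the number of samples, and which property of those libraries matters was not tested. No paired analysis was possible because the sets share no replicate number. In the other comparisons numbers do not pair libraries; with a replicate block the counts were 265 (table set minus WT-water), 0 (other set minus WT-water), 195 (KO-exercise minus the table set) and 38 (KO-exercise minus the other set), the block leaving fewer degrees of freedom. The gap in median uridine content between lower and higher microRNAs was 8.01 percentage points over all and 5.73 over those of at least 100 CPM; the cause was not tested.

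Of 113 results for single microRNAs, 77 kept direction and call under every alternative. Against the other set, the KO-exercise call of miR-342-3p was lost in 1 alternative, of miR-218-5p in 3, of miR-132-3p in 6, of miR-434-3p in 8 and of miR-219a-5p in 9. Between the sets, calls of miR-181c-3p and miR-337-5p were lost in 7 alternatives each, of miR-369-5p in 6, of miR-218-2-3p in 6, of miR-1298-5p and miR-145a-5p in 5, of miR-1264-5p in 4, of miR-99a-5p in 3, of miR-15a-5p, miR-34c-5p and miR-34c-3p in 2 and of let-7e-5p in 12; the joint fit also lost those of miR-29c-3p, miR-434-5p and miR-764-5p. The sign changed only for values that were not called, and the cause was not tested. Between the sets and leaving out 1 library, these log2 fold changes ran from -0.29 to 0.13 for miR-132-3p (0.0533 with letter G alone), from -0.30 to 0.0899 for miR-212-3p, from -1.12 to 0.0677 for miR-204-5p, from -0.0383 to 0.17 for miR-142a-3p, from -0.0678 to 0.10 for miR-24-3p, from -0.0689 to 0.0704 for miR-300-5p (0.0151 with letter G alone), from -0.16 to 0.16 for miR-496a-3p, from -0.12 to 0.36 for miR-764-3p and from -0.0267 to 0.11 for miR-92b-3p. Without scaling factors the value was -0.0462 for miR-142a-3p, -0.0803 for miR-764-3p and -0.0950 for miR-92b-3p. In the joint fit it was -0.00503, -0.0375 and -0.0578, and with no low-count filter -0.0409 for miR-764-3p and -0.0551 for miR-92b-3p. With DESeq2, its size factors and a mean of at least 10 CPM it was -0.0171, -0.0167 and -0.0175 for miR-92b-3p, and with the first 2 of these -0.00379 and -0.00304 for miR-764-3p. For KO-exercise minus the table set, miR-16-5p ran from -0.18 to 0.14 with 1 library left out, with 0.0778 without scaling factors and 0.0240 with a replicate block. For the other set minus WT-water, miR-342-3p was -0.0178 without scaling factors and -0.0270 with a replicate block, and miR-434-3p ran from -0.0542 to 0.0384 with 1 library left out and was 0.00263 with DESeq2, 0.00260 with its size factors, 0.00551 with no low-count filter and 0.00215 in the joint fit. Depth limits rare microRNAs: 1294 of 1966 had a count in any of the 6 libraries, and 532 could be tested.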
